A study of Homo sapiens with 6 samples.

Results

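The FAM83 family comprises 8 human genes, FAM83A to FAM83H, which were found in the count table by matching versioned Ensembl identifiers to gene symbols. All 8 were among the 58381 genes listed, 6 had at least 1 count, and 5 of the 17219 genes that passed the filter on low counts belonged to the family. The family was selected on the counts of FAM83A, which stood among the largest differences in this same contrast, so the members' values in it are given as a description, without p-values, and nothing is supported with them. The libraries came from MOLM-13, an established human cell line of acute myeloid leukaemia with the fusion oncogene MLL-AF9 and an activating FLT3 duplication, grown in RPMI medium with serum. One group was kept for 20 h with 5 µM DB2115, a compound given by its code name alone, and the other for 20 h with vehicle, 0.001% DMSO. No allele differs between the groups, both come from 1 cell line, and the series title places the experiment in work on the transcription factor PU.1. The labels name 3 libraries for each group, but the third column of each group was exactly or nearly the sum of the other columns. That leaves n = 2 libraries per group, A and B. The labels do not say that these were separate cultures, so the spread between them may be technical.

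FAM83 proteins share a conserved N-terminal domain that resembles phospholipase D, lacks a known lipase activity and binds isoforms of casein kinase 1 (CK1), a family of constitutively active serine/threonine kinases. Through this domain each member can place a CK1 isoform at a certain site in the cell, and the remainder of each protein differs. FAM83A and FAM83B are best known from carcinomas, where they act in signalling from the epidermal growth factor receptor through RAS, RAF and phosphatidylinositol 3-kinase, FAM83D brings CK1 alpha to the mitotic spindle, FAM83G acts in BMP and Wnt signalling, and FAM83H organises keratin filaments and is mutated in a hereditary defect of tooth enamel.

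RefSeq promoter windows of 300 bases (250 before and 50 after the annotated start, GRCh38.p14) were matched for 4 members, FAM83B, FAM83C, FAM83E and FAM83G. Of these, 3 are printed because they place a member with counts in every library beside members with few or none. Capitals mark GGAA, the core bound by PU.1 and other ETS factors, read on either strand as GGAA or TTCC. Each sequence runs 5′ to 3′ along the strand of its gene.
FAM83G, chr17:19004715-19005014, minus strand: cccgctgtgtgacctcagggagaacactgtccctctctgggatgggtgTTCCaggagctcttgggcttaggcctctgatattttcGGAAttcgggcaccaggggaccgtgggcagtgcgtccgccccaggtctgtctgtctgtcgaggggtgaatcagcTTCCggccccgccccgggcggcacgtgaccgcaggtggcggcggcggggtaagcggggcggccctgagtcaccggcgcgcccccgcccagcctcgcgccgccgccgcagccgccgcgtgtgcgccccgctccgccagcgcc
FAM83B, chr6:54846521-54846820, plus strand: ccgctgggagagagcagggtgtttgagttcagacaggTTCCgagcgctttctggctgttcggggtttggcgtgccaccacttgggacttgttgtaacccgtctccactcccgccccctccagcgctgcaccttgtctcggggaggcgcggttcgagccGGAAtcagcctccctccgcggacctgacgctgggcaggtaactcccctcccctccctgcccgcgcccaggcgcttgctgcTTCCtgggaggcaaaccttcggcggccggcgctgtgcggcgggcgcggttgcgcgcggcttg
FAM83E, chr19:48615027-48615326, minus strand: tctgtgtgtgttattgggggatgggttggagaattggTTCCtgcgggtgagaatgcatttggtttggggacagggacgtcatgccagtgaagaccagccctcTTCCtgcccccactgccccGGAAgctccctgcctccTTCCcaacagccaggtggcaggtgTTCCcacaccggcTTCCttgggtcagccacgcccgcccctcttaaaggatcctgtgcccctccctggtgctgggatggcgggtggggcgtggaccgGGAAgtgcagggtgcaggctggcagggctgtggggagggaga
The windows of FAM83G and FAM83B each held 3 copies of the core, which is the median over 35116 windows of that length, and that of FAM83E held 7. The core occurred in 95.5% of all windows and so sets none of them apart. The longer PU.1-type motif GAGGAAGT, searched on both strands and found in 2.59% of windows, was in none of the 4. GAGGAA, which lies within that motif and was found in 27.9% of windows, occurred once, in FAM83C. FAM83G and FAM83B had similar base composition, with 34 and 30 CpG dinucleotides and 72.3% and 68.7% GC, whereas FAM83E had 9 CpG dinucleotides and 63.7% GC. FAM83C had 11 CpG dinucleotides and 64.7% GC. FAM83G was counted in all libraries and FAM83B in none. Whether CpG content bears on these counts was not tested.

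Total counts ran from 36547900 to 42446253 per library, and 3 counts in 1 library corresponded to between 0.0725 and 0.0854 CPM (counts scaled to library size after TMM), an upper limit for a gene without counts that covers counting error only. Over all genes tested, 5634 (32.7%) were called higher with DB2115 and 5396 (31.3%) lower by edgeR's quasi-likelihood test at a Benjamini-Hochberg adjusted p under 0.05. The median log2 fold change of DB2115 over vehicle was 0.03. TMM scaling takes most genes as unchanged, so every difference is relative to the RNA sequenced.

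In that fit, FAM83A, FAM83F and FAM83H were called higher with DB2115, FAM83G was called lower, FAM83D was not called, and FAM83B, FAM83C and FAM83E were below the filter. Of the 5 members tested, 3 were thus higher and 1 lower, beside 32.7% and 31.3% of all genes tested. The family was selected on FAM83A, and both FAM83A and FAM83F passed the filter only through the DB2115 libraries. The libraries of the groups did not overlap for any of the 5 members tested, 4 being above vehicle and 1 below, which over all genes tested held for 42.0% and 39.4%, or 81.3% in either direction.

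**Figure D1:**
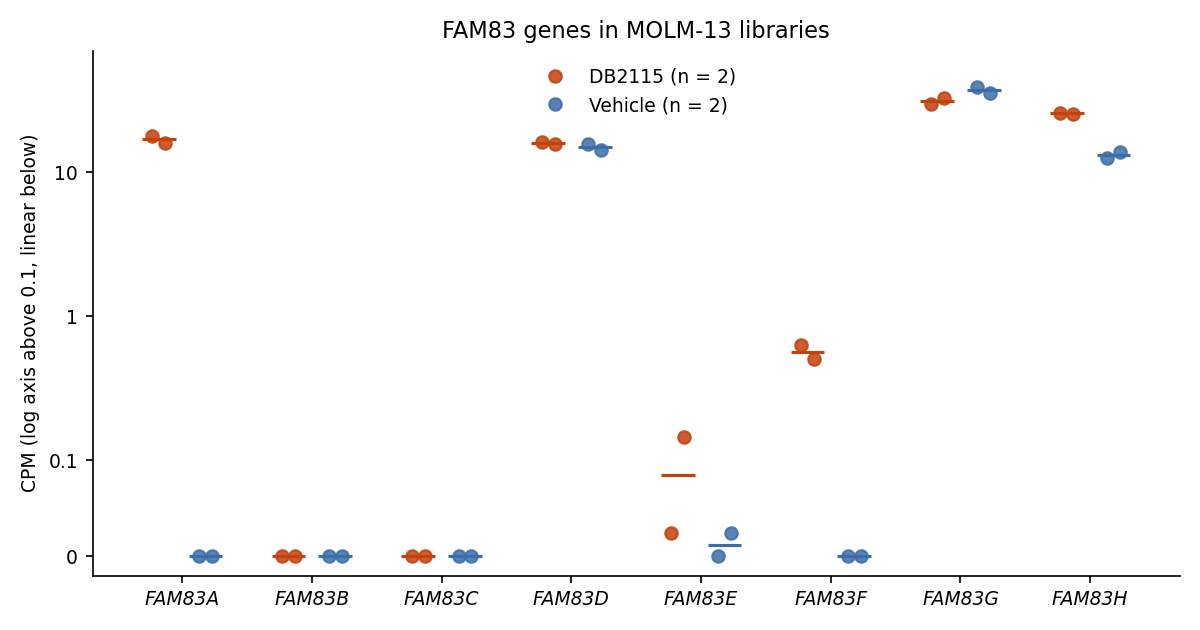
Level of each FAM83 gene in CPM, on an axis that is logarithmic above 0.1 and linear below. Points are the libraries, 2 with DB2115 and 2 with vehicle, and lines are group means. FAM83A lay at 18.0 and 16.0 CPM with DB2115 and at 0 in vehicle, while FAM83B and FAM83C were at 0 throughout.

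FAM83A, on chromosome 8 (123178960 to 123210079, plus strand, GRCh38), was counted in the DB2115 libraries and in neither vehicle library. It had 735 and 661 counts with DB2115 (18.0 and 16.0 CPM), and 0 and 0 counts in vehicle. The libraries of each group resembled each other and the groups were fully apart. The DB2115 mean was 17.0 ± 1.41 CPM (SD, n = 2). This was 432-fold higher than vehicle against a floor of 3 counts over the vehicle group, and the lower 95% counting limit of the ratio was 351. Only 163 of the 17219 genes tested (0.947%) lacked a vehicle count altogether. An antisense gene in the same span, FAM83A-AS1, which shares no exonic base with FAM83A in GENCODE 29, had 14 and 11 counts with DB2115, against 0 and 0 in vehicle. It was 7.74-fold higher against the same floor (lower 95% counting limit 5.84) and, like FAM83A, passed the filter only through the DB2115 libraries. Whether counting used the strand is not stated in the labels, so these reads cannot be told apart from intronic reads of FAM83A. FAM83A-AS2, which shares 389 exonic bases with FAM83A, had 1 count with DB2115 and 0 in vehicle.

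FAM83H, also on chromosome 8 (143723933 to 143733801, minus strand), was present in both groups and higher with DB2115. It stood at 25.9 and 25.5 CPM with DB2115, against 12.6 and 13.9 CPM in vehicle. Both DB2115 libraries were above both vehicle libraries, by far more than the libraries of a group differed. The log2 fold change was 0.95 (SE 0.09), or 1.94-fold, and lay between 0.88 and 1.05 over the 11 alternatives.

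FAM83G, on chromosome 17 (18968789 to 19004804, minus strand), encodes a protein known as PAWS1 and had the most counts of the family. It stood at 29.9 and 33.0 CPM with DB2115, against 39.5 and 35.8 CPM in vehicle. The groups did not overlap, but the gap between their nearest libraries was smaller than the spread within vehicle. The log2 fold change was -0.26 (SE 0.08), or 1.19-fold lower. Its call was lost at -0.16 with upper-quartile factors or total counts, at -0.17 when 1 CPM in 3 libraries was required, and at -0.20 without vehicle library A. FAM83G shares 529 exonic bases with SLC5A10, a sugar transporter gene on the opposite strand. SLC5A10 had 39 and 28 counts with DB2115, against 12 and 7 in vehicle, few beside the 1225 and 1367 counts of FAM83G with DB2115 and its 1387 and 1478 in vehicle.

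FAM83D, on chromosome 20 (38926312 to 38953106, plus strand), the spindle member of the family, differed little between the groups. It stood at 16.4 and 15.7 CPM with DB2115, against 15.7 and 14.4 CPM in vehicle. The lower DB2115 library and the higher vehicle library were nearly equal. The log2 fold change was 0.10 (SE 0.10), and the ratio of counts was 1.07 (95% counting limits 0.989 and 1.16). Genes of its spindle partners and of mitosis, a list of 10, were mostly higher, with 8 called higher and 2 lower, beside 32.7% and 31.3% of all genes, and a median log2 fold change of 0.40. HMMR, a spindle protein that binds FAM83D, rose to 154 and 153 CPM with DB2115, against 70.7 and 68.7 CPM in vehicle (log2 fold change 1.14, SE 0.06, edgeR adjusted p = 3.79e-09). MKI67, a marker of proliferating cells, rose by 0.69 on the log2 scale (adjusted p = 2.26e-06, edgeR). DYNLL1, a dynein light chain that binds FAM83D, fell to 92.7 and 80.0 CPM with DB2115, against 135 and 131 CPM in vehicle (log2 fold change -0.62, SE 0.07, edgeR adjusted p = 7.63e-06). PLK1, a mitotic kinase, fell by 0.46 on the log2 scale (adjusted p = 9.36e-05, edgeR). The difference between FAM83D and these partners was not tested.

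The remaining 4 members were low or silent. FAM83F, on chromosome 22 (39994949 to 40043529, plus strand), whose protein binds CK1 alpha and acts in Wnt signalling, had 26 and 21 counts with DB2115 (0.635 and 0.507 CPM), against 0 and 0 in vehicle. That was 14.5-fold higher against the floor of 3 counts over the group, with a lower 95% counting limit of 11.4, at a level far below that of FAM83A. FAM83E, on chromosome 19 (48600810 to 48614854, minus strand), had 1 and 6 counts with DB2115, against 0 and 1 in vehicle. Of its 7 counts with DB2115, 6 lay in library B, and the ratio of 6.50 had 95% counting limits of 0.835 and 293, so no difference was detectable at this depth. FAM83B, on chromosome 6 (54846771 to 54942022, plus strand), and FAM83C, on chromosome 20 (35285731 to 35292401, minus strand), had no count in any of the 4 libraries. The carcinoma-associated FAM83A and FAM83B, close in known function, therefore differed in that 1 had counts with DB2115 and the other had none.

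Levels of different genes were compared per kb of exons, with all annotated exons of a gene merged. With DB2115 the order was FAM83D (6.64 and 6.36 CPM per kb), FAM83H (4.58 and 4.50), FAM83G (3.80 and 4.19) and FAM83A (2.84 and 2.53), and no neighbours in that order overlapped. In vehicle it was FAM83D (6.35 and 5.82 CPM per kb), FAM83G (5.01 and 4.54) and FAM83H (2.24 and 2.45), again without overlap. Per kb, FAM83H thus stood above FAM83G with DB2115 and below it in vehicle. In CPM, FAM83G was above FAM83H in both groups, so this order depends on the exon lengths used. Per kb of exons, FAM83A with DB2115 exceeded 47.3% of all genes tested and FAM83D 65.7%, so neither was among the abundant transcripts. FAM83F, at 0.0388 and 0.0310 CPM per kb with DB2115, is divided by 16.4 kb of merged exons, and a shorter transcript in use would raise that value.

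**Figure D2:**
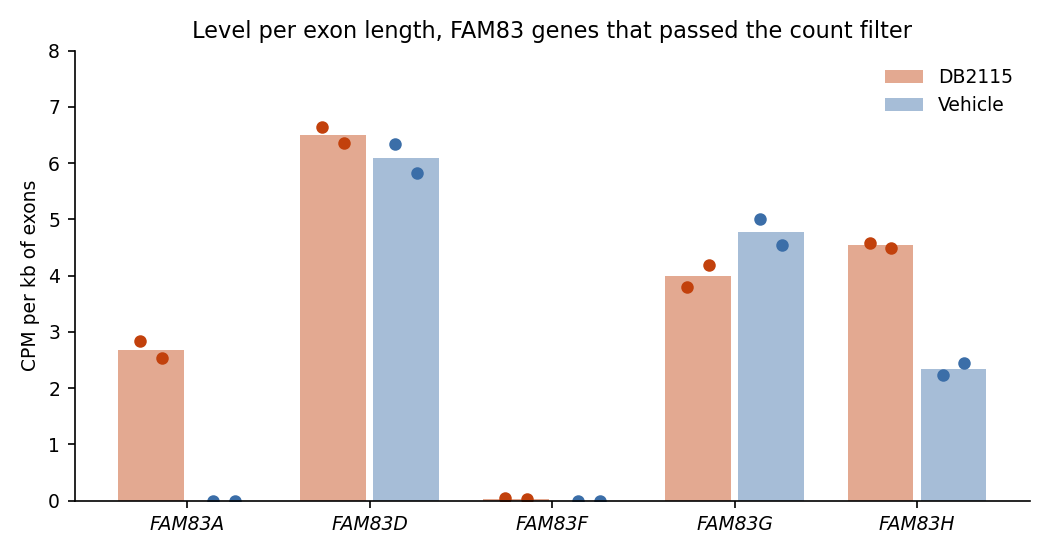
Level per kb of merged exons, in CPM per kb, of the 5 FAM83 genes that passed the count filter. Bars are means, points the 2 libraries of each group, and FAM83D was highest in both groups at 6.50 CPM per kb with DB2115 and 6.09 in vehicle.

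Summed over the 8 members, the family had 90.9 and 90.9 CPM with DB2115, against 67.8 and 64.1 CPM in vehicle. Of the difference of 24.9 CPM between the group means, FAM83A made up 17.0 CPM and FAM83H 12.4 CPM, while FAM83G was lower by 6.16 CPM (its DB2115 minus vehicle difference was -6.16). FAM83G held 32.9% and 36.3% of the family's CPM with DB2115, against 58.2% and 55.9% in vehicle, and FAM83A held 19.8% and 17.6% with DB2115.

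The CK1 isoforms that FAM83 proteins bind changed little. Of 4 genes, 2 rose, 1 fell and 1 was not called, beside 32.7% higher and 31.3% lower over all genes. CSNK1A1, the isoform bound by all FAM83 proteins, stood at 158 and 164 CPM with DB2115, against 145 and 141 CPM in vehicle (log2 fold change 0.17, SE 0.06, edgeR adjusted p = 0.0219). That call was lost without DB2115 library B (0.13), without vehicle library A (0.17), without vehicle library B (0.13) and without a filter on low counts (0.16). CSNK1D had a log2 fold change of 0.27 (SE 0.06, edgeR adjusted p = 0.00209), no longer called without vehicle library B (adjusted p = 0.0619), and CSNK1E fell with one of -0.34 (SE 0.07, edgeR adjusted p = 0.000712). CSNK1A1L, an intronless relative of CSNK1A1, was at 0.489 and 0.676 CPM with DB2115 and 0.484 and 0.848 CPM in vehicle. The gamma isoforms, which FAM83 proteins are not known to bind, moved apart, with CSNK1G1 higher (log2 fold change 0.44, edgeR adjusted p = 0.000283), CSNK1G3 lower (-0.81, edgeR adjusted p = 3.46e-06) and CSNK1G2 not called (-0.14, edgeR adjusted p = 0.0514). CSNK1G2 was called lower without DB2115 library A and with a block on the column letters. All 7 CK1 genes but CSNK1A1L were counted at 13 CPM or more in every library, so the kinases' transcripts were present beside FAM83A, FAM83D, FAM83G and FAM83H.

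**Figure D3:**
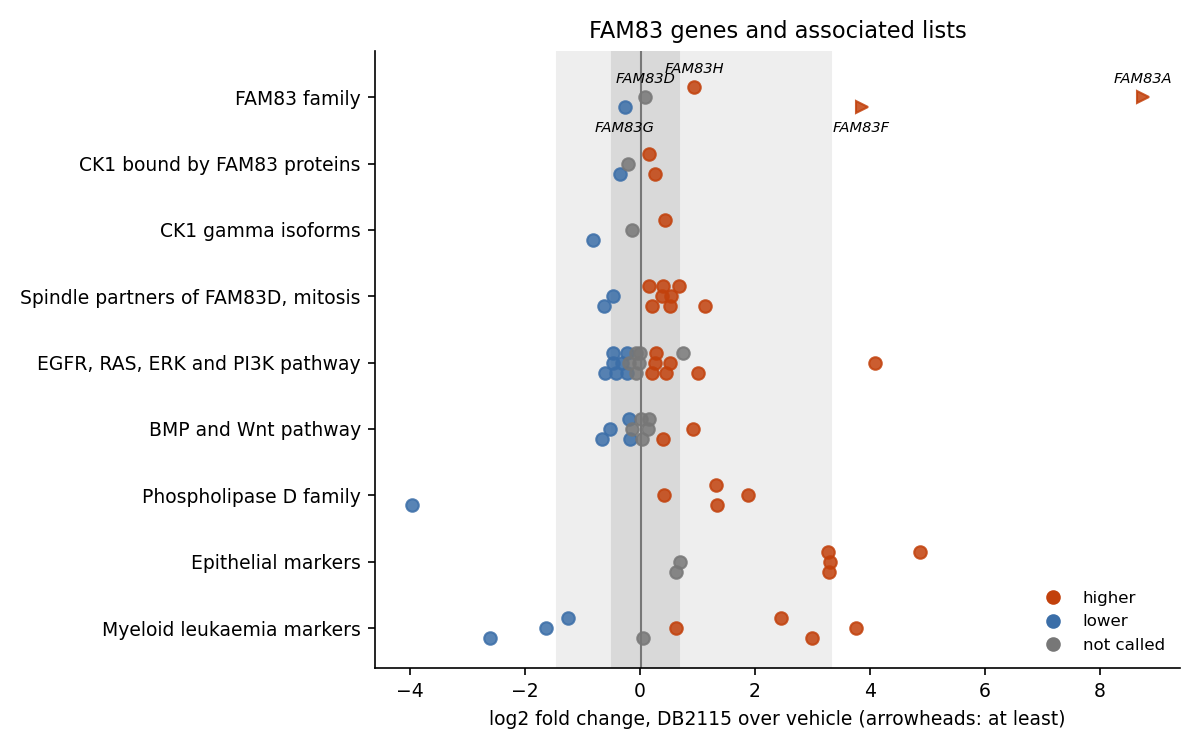
Log2 fold change of DB2115 over vehicle for FAM83 genes and the listed genes that were tested, coloured by call. Arrowheads, for genes without a vehicle count, are values against a floor of 3 counts over the vehicle group. Bands hold the central 50% and 90% of all genes tested (from -0.48 to 0.68 and from -1.44 to 3.32), and the line is their median, 0.03.

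Genes of the growth factor pathway in which FAM83A and FAM83B are known to act were called about as often as genes at large. Of 20 genes tested, 7 rose and 7 fell, beside 32.7% and 31.3% of all genes. The median log2 fold change was -0.03, and fewer of the 20 were called higher without vehicle library B. EGFR itself was below the filter, with 6 counts with DB2115 and 7 in vehicle. ERBB3, a receptor of the same family, had 1.64 and 2.0 CPM with DB2115, against 0.0569 and 0.145 CPM in vehicle (log2 fold change 4.09, SE 0.48). It passed the filter only through the DB2115 libraries and counts among the 7 that rose. A call of lower was hardly possible for it, so no p-value is given. MAPK3, the kinase ERK1, rose 2.03-fold to 57.8 and 56.4 CPM with DB2115, against 29.1 and 27.1 CPM in vehicle (edgeR adjusted p = 5.09e-08). PIK3CB, a catalytic subunit of phosphatidylinositol 3-kinase, fell by 0.60 on the log2 scale (edgeR adjusted p = 2.11e-06), and HRAS by 0.47 (edgeR adjusted p = 0.000488).

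Among 11 tested genes of the BMP and Wnt pathways, in which FAM83G acts, 2 rose and 4 fell, with a median of 0.02. Over all genes tested, 32.7% were called higher and 31.3% lower. Only 2 falls were called with upper-quartile factors, total counts, 1 CPM required in 3 libraries or DESeq2, and likewise without DB2115 library A, vehicle library A or vehicle library B. BMPR2, a BMP receptor, rose to 34.8 and 37.2 CPM with DB2115, against 19.0 and 19.0 CPM in vehicle (log2 fold change 0.92, edgeR adjusted p = 4.02e-07), and the kinase GSK3B rose by 0.41 on the log2 scale (edgeR adjusted p = 0.000109). AXIN1, the scaffold of the complex that degrades beta-catenin, fell by 0.66 on the log2 scale (edgeR adjusted p = 4.33e-06) and BMPR1A, another BMP receptor, by 0.51 (edgeR adjusted p = 0.00105). SMAD1, the BMP mediator that binds FAM83G, was near silent, with 3 counts with DB2115 and 1 in vehicle.

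Phospholipase D genes, whose fold the FAM83 domain resembles, were mostly higher. Of 5 tested, 4 rose and 1 fell, beside 32.7% and 31.3% of all genes, with a median log2 fold change of 1.33. PLD3, an endolysosomal nuclease, stood at 170 and 170 CPM with DB2115, against 46.2 and 46.2 CPM in vehicle (log2 fold change 1.88, SE 0.06, edgeR adjusted p = 5.84e-11). PLD1 and PLD2, the classical phospholipases, rose with log2 fold changes of 1.35 (edgeR adjusted p = 8.34e-09) and 1.33 (edgeR adjusted p = 3.05e-05), and PLD4, a relative of PLD3, with one of 0.43 (edgeR adjusted p = 5.26e-05). PLD6, a mitochondrial member that acts in piRNA production, fell to 3.10 and 3.62 CPM with DB2115, against 51.6 and 52.9 CPM in vehicle, 15.5-fold lower (edgeR adjusted p = 8.88e-12).

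Since FAM83 genes are mostly known from epithelia, 15 epithelial markers were read beside them. Their summed level was 107 and 106 CPM with DB2115, against 8.97 and 7.05 CPM in vehicle. Of the 6 tested, 4 rose and none fell, beside 32.7% and 31.3% of all genes. CLDN4, among the 4, had 8 and 3 counts in vehicle and passed the filter only through the DB2115 libraries. KRT18 (log2 fold change 0.71, edgeR adjusted p = 0.12) and OVOL1 (0.64, edgeR adjusted p = 0.316) were tested and not called. KRT8, a keratin of simple epithelia, made up most of the DB2115 sum. It stood at 65.8 and 63.6 CPM with DB2115, against 2.85 and 1.65 CPM in vehicle (log2 fold change 4.87, SE 0.15, edgeR adjusted p = 3.13e-11). ESRP1, an epithelial splicing factor, rose by 3.31 on the log2 scale (edgeR adjusted p = 1.53e-09). The other 9 were below the filter, so they could not be called, and their counts went both ways. EPCAM had 4 counts with DB2115 against 14 in vehicle, and KRT19 had 9 against 17. In the other direction, KRT14 had 8 against 1 and ESRP2 had 20 against 13. KRT5 had no count in any library and CLDN3 none with DB2115, while the defining epithelial genes EPCAM and CDH1 averaged 0.0486 and 0.110 CPM with DB2115 and 0.182 and 0.0790 CPM in vehicle. All 8 myeloid markers passed the filter in the fit, with a summed level of 904 and 845 CPM with DB2115, against 1140 and 1100 CPM in vehicle. Of these, 4 rose and 3 fell, beside the same shares of all genes. The largest rises were CSF1R (log2 fold change 3.76, edgeR adjusted p = 5.59e-12) and ITGAM (2.99, edgeR adjusted p = 2.84e-09). The largest falls were PTPRC (-2.60, edgeR adjusted p = 1.02e-11) and FLT3 (-1.63, edgeR adjusted p = 1.40e-10). The part of these shifts in the FAM83 values was not tested.

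Genes around FAM83A, FAM83D, FAM83F, FAM83G and FAM83H were called in both directions. No other gene within 300 kb of FAM83B was tested. Within 300 kb of FAM83A, 3 of 10 other tested genes were called higher and 4 lower, beside 32.7% and 31.3% of all genes. TBC1D31, the nearest gene at lower coordinates, fell to 18.5 and 21.1 CPM with DB2115, against 29.2 and 26.1 CPM in vehicle (log2 fold change -0.48, edgeR adjusted p = 0.000608). Around FAM83G the direction was the opposite of its own, with 12 of 19 higher and 1 lower. Among the 12 were SLC5A10 (log2 fold change 1.69) and GRAP, an adaptor protein (0.84, edgeR adjusted p = 0.000367). SLC5A10 passed the filter only through the DB2115 libraries. The call of SLC5A10 was lost without DB2115 library A (1.40) and without vehicle library B (1.22), and the 12 include several copies of the snoRNA U3 gene and of GRAP, whose reads cannot be assigned with certainty.

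FAM83H lies between MAPK15, 1475 bp from its end, and IQANK1, 339 bp from its start, both on the opposite strand, and both were higher as well. MAPK15, an atypical MAP kinase, had 33 and 32 counts with DB2115, against 1 and 2 in vehicle. That gives a ratio of 20.1 (95% counting limits 6.58 and 100), and MAPK15 passed the filter only through the DB2115 libraries. IQANK1 had 77 and 90 counts with DB2115, against 18 and 11 in vehicle (log2 fold change 2.40, edgeR adjusted p = 9.34e-05). Within 300 kb of FAM83H, 12 of 25 other tested genes were higher and 8 lower, beside 32.7% and 31.3% of all genes. MIR4664, inside a FAM83H intron, was not called (log2 fold change 0.56, edgeR adjusted p = 0.243).

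FAM83F has GRAP2, an adaptor of leukocyte signalling, on its lower side and TNRC6B, a factor of miRNA silencing, on the other. GRAP2 had 0.684 and 1.28 CPM with DB2115, against 0.0854 and 0.0969 CPM in vehicle (log2 fold change 3.38). It passed the filter only through the DB2115 libraries. TNRC6B rose by 0.66 on the log2 scale (edgeR adjusted p = 8.62e-06). PPP1R16B, 3288 bp from FAM83D, rose 2.64-fold (edgeR adjusted p = 8.85e-10) where FAM83D was not called. The silent FAM83C lies between expressed genes, EIF6 (log2 fold change -0.70, edgeR adjusted p = 9.40e-07) and UQCC1 (-0.32, edgeR adjusted p = 0.00185). The near-silent FAM83E lies between SULT2B1 (3.15) and RPL18 (-0.38, edgeR adjusted p = 0.000474). SULT2B1 passed the filter only through the DB2115 libraries, and its call was lost without vehicle library B (3.56). The other overlapping or nearest annotated genes had 33 counts or fewer over the 4 libraries.

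**Figure D4:**
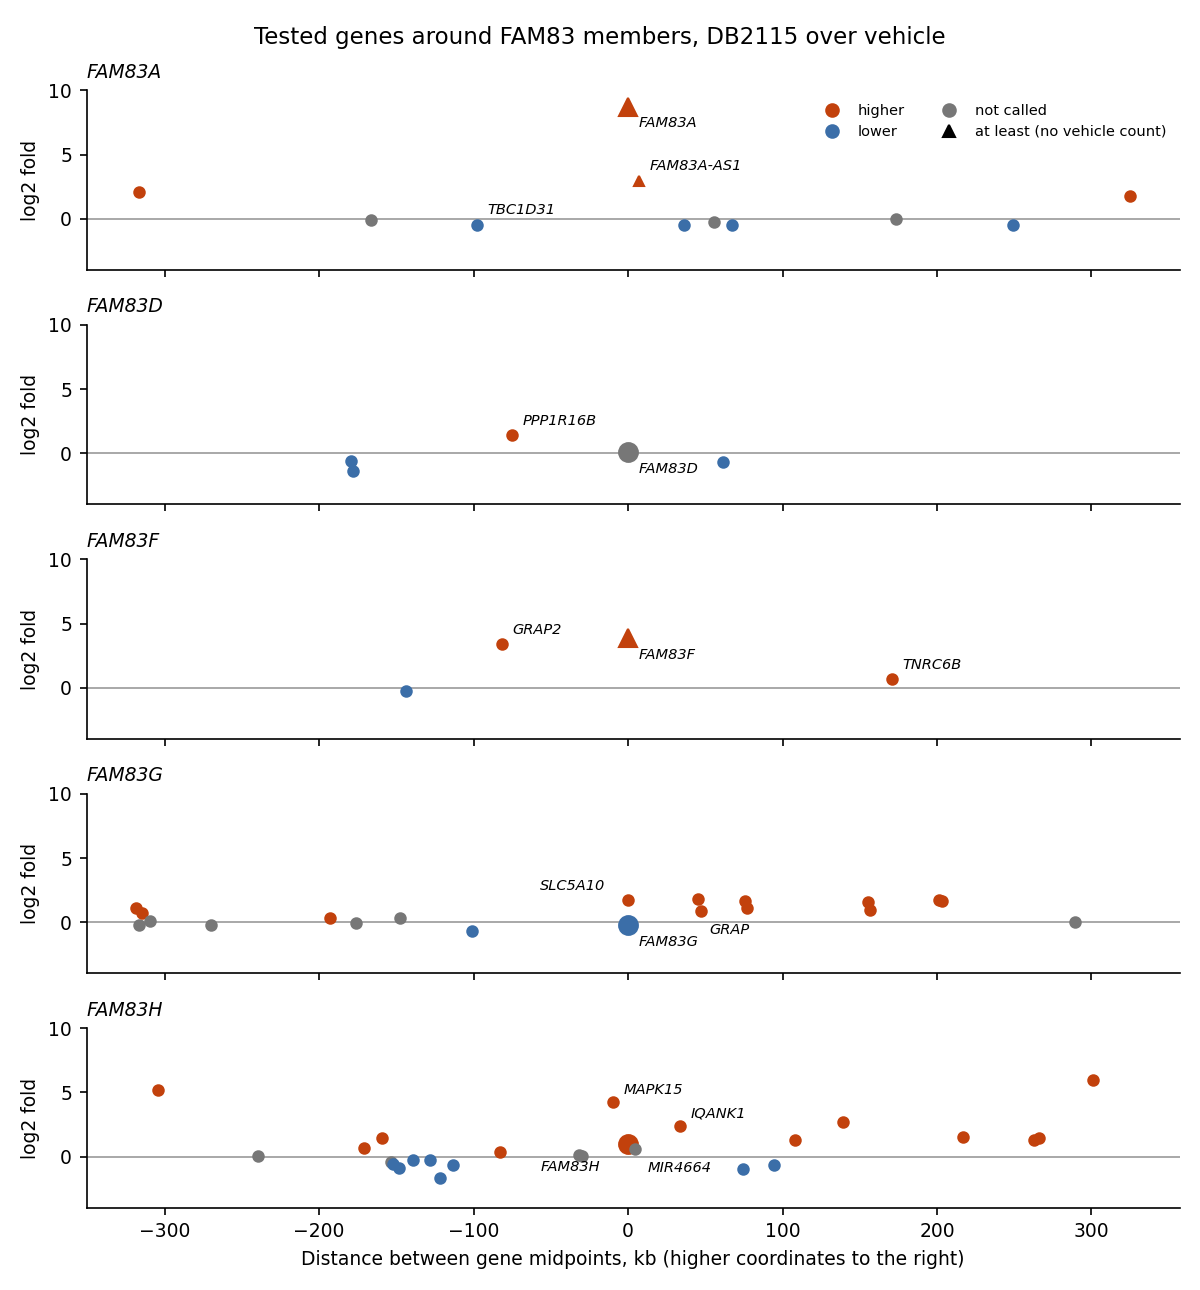
Log2 fold change of DB2115 over vehicle for the tested genes around 5 FAM83 members, against distance between gene midpoints in kb, coloured by call (higher, lower or not called). Large symbols are the members and triangles lower bounds for genes without a vehicle count. FAM83A stands above its neighbours, while FAM83G lies below most of its own.

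The genes with levels most like those of a member were sought by Euclidean distance in log2(CPM + 0.1) over the 4 libraries. For FAM83A these were KRT80, a keratin (distance 0.56), SIGLEC1, a macrophage lectin (0.67), and SLC28A3, a nucleoside transporter (0.68). KRT80 stood at 22.1 and 22.2 CPM with DB2115, against 0 and 0 in vehicle. For FAM83G they were RAD51AP1, a recombination factor (distance 0.04), FRG1 (0.09) and DDTL (0.10), the last 2 with near-identical relatives and uncertain counts. With 4 libraries in 2 groups, such likeness describes a level and a difference and nothing more.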

How the data were processed

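RNA sequencing libraries of MOLM-13 cells, DB2115 against vehicle, were read from 1 deposited table of raw read counts per gene in 6 columns. Per the submitters' processing notes, FastQC, STAR, DESeq2 and build hg38 were used. Versions, the annotation, the counting program and its strand setting are not stated in the labels. In each group the third column was exactly the sum of the other columns in 86.3% (DB2115) and 85.6% (vehicle) of genes with counts and was left out. Symbols were found for 58261 identifiers, with coordinates from GENCODE 29 (GRCh38). Of the identifiers, 56933 had the same version there.

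Genes passing filterByExpr (minimum count 10, minimum total 15) were scaled by TMM and tested with edgeR 4.0.16 (glmQLFit, glmQLFTest) in R 4.3.3 on treatment alone, with Benjamini-Hochberg adjustment over all genes tested. The fit was tested on simulated counts. Standard errors were derived from the F statistic. Ratios carry exact 95% counting intervals. Columns A and B had a within-group median chi-square per gene of 1.91 (DB2115) and 1.48 (vehicle), against 0.455 for sampling alone, and were kept as separate libraries. The members, gene lists and rules were chosen with earlier results of these data known. Named genes were all members, list genes with the largest called changes (up to 2 each way) or whole lists of 5 or fewer, genes overlapping or next to a member, and the 3 nearest patterns. EPCAM, CDH1, KRT5, KRT14, KRT18, KRT19, OVOL1, CLDN3, CLDN4, ESRP2, EGFR and SMAD1 were added after their values were seen. One further epithelial marker of the plan is not reported here and enters no count or sum of that list. The 11 alternatives covered scaling, filters, DESeq2 1.42.0, each library left out and a block on the column letters.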

Additional observations from a re-analysis of the deposited data

How the results depend on the processing

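The count of members called higher was 3 as reported and under 10 of the 11 alternatives, and 1 (FAM83H) when 1 CPM in at least 3 libraries was required. FAM83A and FAM83F do not pass that filter. The count called lower, FAM83G alone, was 0 under that filter, with upper-quartile factors and with total counts. Leaving out each library gave between 0 and 1, the 0 being without vehicle library A. FAM83D was not called under any alternative, with log2 fold changes of 0.01 to 0.19. The 51 list genes called became 40 to 49 with a library left out. The columns carry letters and no replicate number. The differences between A and B correlated at 0.0537 between the groups over 12984 genes. A single value over so many genes cannot show whether some of them share an effect by letter. Whether the letters mark paired libraries is not known. With a replicate block on these letters, 5810 genes were called higher and 5614 lower, 3 members higher and 1 lower, and 52 list genes. With 2 libraries per group, and fewer than 10 counts per library for FAM83E, small differences and low genes are not resolved.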
